A study of Homo sapiens with 9 samples.

Results

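CD10 and the surface antigens that are used alongside it to sort mammary and mesenchymal stem-like cells were read in RNA counts of 9 human mammary epithelial cultures. The set held 9 genes picked by symbol, MME (which encodes CD10), CD44, CD24, PROM1, EPCAM, THY1, NT5E, ENG and BMI1, out of 60199 rows in the count table. Of these 9 genes 8 had at least 1 count in any library and 7 passed the filter on low counts. MCF10A is an immortalised, non-malignant epithelial line from breast tissue that lacks CDKN2A. CT was MCF10A without added factors and is labelled as not transformed. MC26 came from unsorted MCF10A cells kept for a long time in BMP2 and IL6. M1B26 started from the MCF10A cells that a sort for BMPR1B, a BMP receptor, had kept, which were cultured with the same 2 factors and taken through selection and expansion of soft-agar clones. Each line had 3 libraries from separate cultures, and MC26 and M1B26 were grown with both factors. Whether the 3 M1B26 libraries stand for separate clones is not given in the sources used here, so their spread may be that of cultures of the same cells. The study reports that sorted cells transformed within a few weeks, faster than unsorted cells, so time in the factors may have differed too. Sorting and clone selection differed between MC26 and M1B26 as well, so the effects of these cannot be told apart.

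CD10 is a zinc metallopeptidase of the cell surface that cuts small signalling peptides, and in the breast it marks basal, myoepithelial and some stromal cells. CD44 binds hyaluronan, CD24 is a small glycosylated GPI-anchored protein, and cells with much CD44 and little CD24 are commonly sorted as breast cancer stem-like cells. EPCAM is a homophilic adhesion protein of epithelia, PROM1 (CD133) is a membrane glycoprotein of stem and progenitor cells, and THY1 (CD90), NT5E (CD73) and ENG (CD105) define mesenchymal stromal cells. BMI1 is not a surface protein but a subunit of polycomb repressive complex 1 that is tied to self-renewal.

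Promoter sequences are shown for 3 members that differed between the lines. They are the parts of RefSeq windows on GRCh38.p14, from 250 bases before to 50 bases after an annotated start, that lie outside every GENCODE v44 exon. RefSeq gave 16 windows for 7 of the 9 members, 4 of them for MME. Both MME stretches lie within the span of the gene, between exons, at chr3:155079422-155079646 and chr3:155079757-155079855 on the plus strand. The CD24 stretch is chr6:106975628-106975877 and the ENG stretch chr9:127854659-127854908, both on the minus strand and directly upstream of the gene. Sequences run 5′ to 3′, and capitals mark a match to the E-box CACCTG on either strand.
MME, first window: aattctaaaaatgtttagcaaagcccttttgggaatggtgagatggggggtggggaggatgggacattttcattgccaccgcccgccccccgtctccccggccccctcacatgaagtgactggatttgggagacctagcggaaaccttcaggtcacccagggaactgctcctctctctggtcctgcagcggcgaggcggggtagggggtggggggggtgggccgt
MME, second window: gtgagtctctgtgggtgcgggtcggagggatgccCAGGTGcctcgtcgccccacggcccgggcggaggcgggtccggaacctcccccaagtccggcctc
CD24: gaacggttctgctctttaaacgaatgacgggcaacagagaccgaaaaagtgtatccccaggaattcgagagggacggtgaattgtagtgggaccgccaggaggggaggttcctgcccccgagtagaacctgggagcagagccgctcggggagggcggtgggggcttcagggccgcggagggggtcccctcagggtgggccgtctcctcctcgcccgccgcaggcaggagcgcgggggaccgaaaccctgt
ENG: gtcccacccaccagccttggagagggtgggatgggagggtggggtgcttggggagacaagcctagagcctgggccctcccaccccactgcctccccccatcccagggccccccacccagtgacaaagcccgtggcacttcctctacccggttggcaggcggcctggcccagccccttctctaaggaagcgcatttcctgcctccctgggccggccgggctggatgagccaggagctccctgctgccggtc

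The lines were made with BMP2 and IL6, so all 16 windows were searched on both strands for the GC-rich SMAD element GGCGCC, the palindromic SMAD element GTCTAGAC, the STAT element TTCNNNGAA and the E-box CACCTG. In the second MME window the E-box began 79 bases before the start. The E-box was found in windows of MME, CD24 and PROM1. GGCGCC was found in windows of BMI1 and PROM1 and in none of MME, CD44, CD24, NT5E or ENG. GTCTAGAC and TTCNNNGAA had no match in any of the 16 windows. Of all 35116 windows in the RefSeq table, 19.2% held GGCGCC, 0.202% GTCTAGAC, 7.66% TTCNNNGAA and 20.6% CACCTG. A match describes the letters in these windows and not binding of a factor.

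Total counts per library ran from 21425118 to 80076597. Levels are given as counts scaled to a common library size of 1000000 (CPM) after TMM scaling, and 3 counts stood for 0.0366 to 0.131 CPM, which was taken as the floor of detection. A gene is called changed where its adjusted p from edgeR's quasi-likelihood test over 15717 genes lay under 0.05. Log2 fold changes carry their standard error (SE). Epithelial identity was checked first: the basal keratin KRT5 held 4633 to 7299 CPM in all libraries. Among defining markers of other cells, the leukocyte gene PTPRC had at most 2 counts in any library and the leukocyte genes CD3E and CD2 had 0. The endothelial gene CLDN5 had 0 counts, and the fibroblast collagens COL1A2 and COL3A1 at most 1. Other markers on the same lists were expressed, with 158 to 2592 counts of the leukocyte gene CD14, 3 to 414 of the endothelial gene PECAM1, 154 to 947 of the fibroblast collagen COL1A1 and 219 to 2346 of the fibroblast proteoglycan DCN.

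MME was the member with the lowest level per kb of exon among those that passed the filter, and the one with the largest rise in M1B26. The gene lies on chromosome 3 at 155024124 to 155183704 of GRCh38, on the plus strand. The CT libraries held 6.53, 8.34 and 6.14 CPM. Values of 6.19, 12.8 and 21.7 CPM were found in MC26, and in M1B26 44.2, 51.6 and 43.8 CPM. All M1B26 libraries lay above all others, whereas MC26 replicate 1 lay within the range of CT. The mean of 46.5 ± 4.42 CPM in M1B26 (SD, n = 3) stood against 7.004 ± 1.18 in CT, with a fitted fold change of 6.78, or 2.76 on the log2 scale (SE 0.34, edgeR adjusted p 6.98e-05). It was 1.78 (SE 0.32, edgeR adjusted p 0.00145) against MC26.

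In MC26 against CT the log2 fold change of MME was 0.98 (SE 0.33, edgeR adjusted p 0.0367). The call was lost with DESeq2 (0.96, adjusted p 0.0574) and with only the 6 libraries compared (0.97, adjusted p 0.0765). It was also lost with the replicate number as a further term in the edgeR fit (0.89, adjusted p 0.0516). Without MC26 replicate 3 it was 0.47 (edgeR adjusted p 0.154), and the call was also lost without CT replicate 1 (0.95, adjusted p 0.102), CT replicate 3 (0.90, adjusted p 0.102), MC26 replicate 2 (1.03, adjusted p 0.0666), M1B26 replicate 1 (0.99, adjusted p 0.0527) or M1B26 replicate 2 (0.98, adjusted p 0.0519). In bulk RNA a larger share of MME-expressing cells and more MME RNA per cell cannot be told apart. For the protein, the study reports by flow cytometry a higher share of CD10-positive cells in MC26 and M1B26 than in CT. It also reports more CD10 per positive cell in the transformed lines. The antisense gene MME-AS1, which shares 214 exonic bases with MME, had 0 counts in all libraries. The fibroblast marker DCN held 28.6, 29.9 and 28.6 CPM in CT and 5.45, 15.9 and 47.3 CPM in MC26 replicates 1, 2 and 3, where it was highest in the same library as MME. In M1B26, where MME was highest, DCN held 9.56, 17.8 and 14.6 CPM. When the study split MCF10A by surface CD10, DCN was among the genes with more RNA in the CD10-bearing fraction. LUM and COL1A1, the markers read next, are not listed among those genes. The fibroblast marker LUM held 0.0715, 0.131 and 0.122 CPM in CT and 0, 0.0784 and 0.306 CPM in MC26 replicates 1, 2 and 3. It had at most 13 counts in any of these libraries. In M1B26 LUM held 4.76, 6.20 and 4.38 CPM, and its order over replicates was that of MME in both MC26 and M1B26. The fibroblast marker COL1A1 held 8.20, 6.73 and 8.27 CPM in CT and 11.2, 9.62 and 8.35 CPM in MC26 replicates 1, 2 and 3. Its order in MC26 was the opposite of that of MME. In M1B26 COL1A1 was higher, at 13.6, 15.2 and 17.5 CPM. Over the 7 fibroblast markers the summed level was 37.4 to 37.8 CPM in CT, 17.1 to 56.8 in MC26 and 28.5 to 39.9 in M1B26. Their part in the MME values was not tested.

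**Figure D1:**
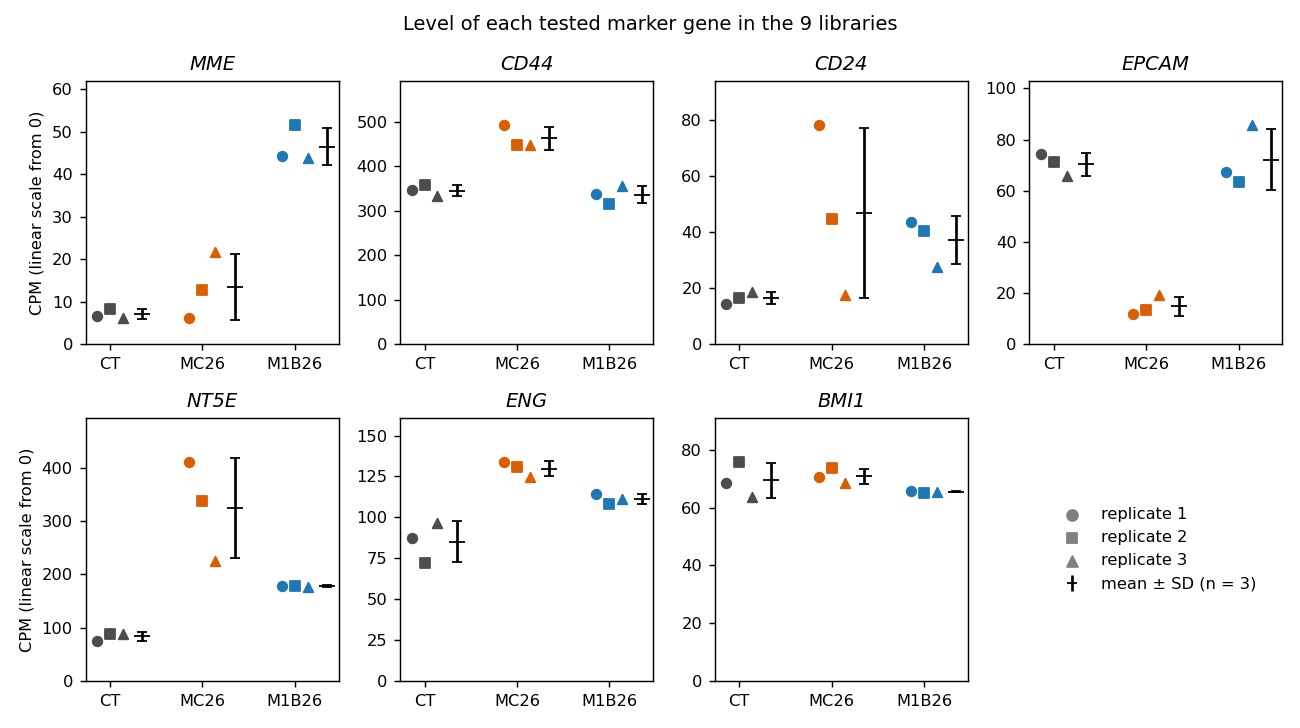
CPM of the 7 marker genes that passed the filter on low counts, 1 panel per gene, with each point a library and black marks the mean ± SD of the 3 libraries of a line. MME sits at 43.8 to 51.6 CPM in M1B26, above every CT and MC26 library, while EPCAM is low in MC26 and NT5E is high there.

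CD44 and CD24 moved in other ways than MME. CD44 (chromosome 11, 35138882 to 35232402, plus strand) had the highest level per kb of the 9 genes in CT, and held 346, 357 and 332 CPM. It had 493, 448 and 448 CPM in MC26 and 337, 316 and 355 CPM in M1B26. All MC26 libraries were above those of both other lines, and M1B26 overlapped with CT. The log2 fold change was 0.42 in MC26 against CT (SE 0.07, edgeR adjusted p 0.000760), -0.04 in M1B26 against CT (SE 0.07, adjusted p 0.670) and -0.46 in M1B26 against MC26 (SE 0.07, adjusted p 0.000496).

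CD24 (chromosome 6, 106969831 to 106975627, minus strand) had 14.5, 16.4 and 18.7 CPM in CT. In MC26 it had 78.2, 44.7 and 17.6 CPM, and in M1B26 43.6, 40.3 and 27.6 CPM. The lowest MC26 library, replicate 3, fell inside the CT range, whereas all M1B26 libraries were above CT. CD24 rose by 1.50 in MC26 (SE 0.40, edgeR adjusted p 0.0126) and by 1.17 in M1B26 (SE 0.40, adjusted p 0.0313), both on the log2 scale against CT. Leaving out MC26 replicate 1 took the first to 0.91 (edgeR adjusted p 0.0524). The second lost its call without CT replicate 1 (1.07, adjusted p 0.0963), CT replicate 2 (1.15, adjusted p 0.0765), CT replicate 3 (1.27, adjusted p 0.0525), M1B26 replicate 1 (1.04, adjusted p 0.0949) or M1B26 replicate 2 (1.11, adjusted p 0.0823). Between M1B26 and MC26 the value was -0.33 (SE 0.39, edgeR adjusted p 0.519), with 0.26 (adjusted p 0.567) without MC26 replicate 1 and -0.73 (adjusted p 0.0279) without MC26 replicate 3. The near-identical copies CD24P1, CD24P2 and CD24P4 had 0 counts throughout, so reads of CD24 were not split onto these rows. Whether reads that match several copies were dropped is not known, so the CD24 level could be too low.

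The ratio of CD44 to CD24 was read per library because high CD44 with low CD24 is the stem-like sorting gate. With both genes as CPM per kb of exons the ratio was 7.41, 6.75 and 5.50 in CT. It was 1.95, 3.11 and 7.88 in MC26 and 2.39, 2.43 and 3.99 in M1B26. The ratio was thus lower in every M1B26 library than in any CT library, with a mean log2 difference of -1.19 (2-sided exact permutation p 0.1). For 3 libraries against 3 a p of 0.1 is the smallest possible. In MC26 the ratio spread to both sides of CT, with a log2 difference of -0.84 (exact permutation p 0.4), and between M1B26 and MC26 the difference was -0.35 (exact permutation p 0.7). A ratio of bulk RNA says nothing of how many cells hold both proteins.

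**Figure D2:**
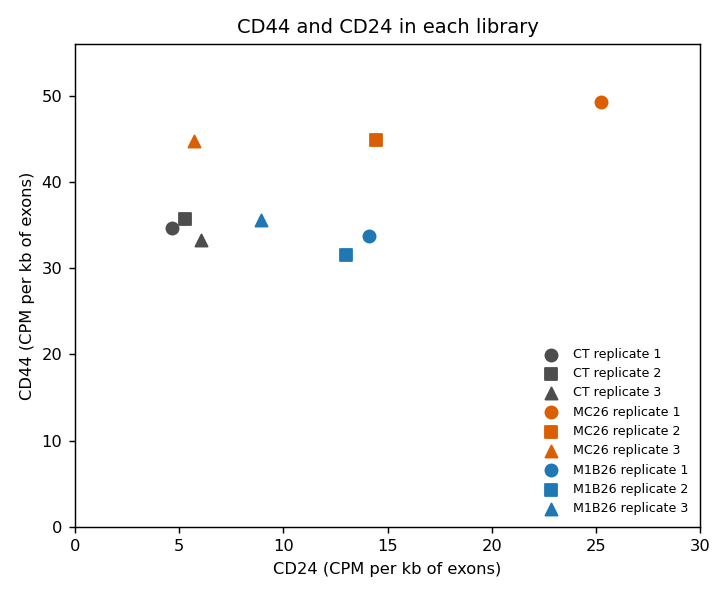
CD44 (vertical) against CD24 (horizontal), both as CPM per kb of exons on linear axes from 0, with each point a library coloured by line and shaped by replicate. The CT points lie at 4.67 to 6.04 of CD24, the M1B26 points at 8.91 to 14.1 with CD44 near that of CT, and the MC26 points spread from 5.68 to 25.3.

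EPCAM was the only member called lower than CT, and this was in MC26. The gene lies on chromosome 2 at 47345158 to 47387601, on the plus strand. CT libraries held 74.4, 71.2 and 65.6 CPM and M1B26 libraries 67.1, 63.5 and 85.7 CPM. MC26 libraries held 11.7, 13.5 and 19.1 CPM, all below both other lines, which overlapped each other. MC26 was at 0.211 times the CT level, a log2 fold change of -2.25 (SE 0.17, edgeR adjusted p 3.65e-06). M1B26 against CT gave 0.04 (SE 0.16, edgeR adjusted p 0.865), and M1B26 against MC26 2.28 (SE 0.17, adjusted p 5.22e-06).

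Of the mesenchymal trio, NT5E and ENG were expressed and THY1 was not detected. NT5E (chromosome 6, 85449584 to 85495791, plus strand), the enzyme that turns extracellular AMP into adenosine, had 74.3, 88.3 and 88.1 CPM in CT. Its MC26 libraries held 411, 338 and 225 CPM and its M1B26 libraries 179, 178 and 177 CPM. No 2 lines overlapped, and MC26 was highest. NT5E rose by 1.96 in MC26 (SE 0.17, edgeR adjusted p 1.19e-05) and by 1.09 in M1B26 (SE 0.17, adjusted p 0.000377) against CT, and the difference between M1B26 and MC26 was -0.87 (SE 0.17, adjusted p 0.00228).

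ENG (chromosome 9, 127815013 to 127854658, minus strand), a co-receptor for TGF-β and BMP ligands, moved less. It had 87.2, 72.0 and 96.5 CPM in CT, 134, 131 and 125 CPM in MC26 and 114, 108 and 111 CPM in M1B26. Both transformed lines lay above CT in every library. The log2 fold change against CT was 0.60 in MC26 (SE 0.09, edgeR adjusted p 0.000560) and 0.38 in M1B26 (SE 0.09, adjusted p 0.00617). M1B26 lay below MC26 in all libraries, at -0.22 (SE 0.09, edgeR adjusted p 0.0792), which passed the threshold without CT replicate 2 (-0.23, adjusted p 0.00961) or CT replicate 3 (-0.23, adjusted p 0.0388).

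THY1 (chromosome 11, 119415476 to 119424985, minus strand) had 0 counts in all 9 libraries, which allows a level of up to 0.0366 to 0.131 CPM per library. The antisense gene USP2-AS1, which shares 232 exonic bases with THY1, had 52 to 204 counts per library. PROM1 (chromosome 4, 15963076 to 16084378, minus strand) had 0 counts in CT and MC26, and 1, 0 and 2 counts in M1B26 replicates 1, 2 and 3. All PROM1 values were under the floor, so no fold change is given. Neither gene passed the filter on low counts, and a difference between the lines was not detectable at this depth. These values are counting limits only.

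BMI1 (chromosome 10, 22321099 to 22331484, plus strand) was called in none of the 3 comparisons. It held 68.4, 75.9 and 63.8 CPM in CT, 70.5, 73.7 and 68.6 in MC26 and 65.6, 65.2 and 65.6 in M1B26. Both transformed lines overlapped with CT. The log2 fold change against CT was 0.03 in MC26 (SE 0.07, edgeR adjusted p 0.739) and -0.08 in M1B26 (SE 0.07, adjusted p 0.368), and M1B26 against MC26 gave -0.12 (SE 0.07, adjusted p 0.221). The readthrough gene COMMD3-BMI1 shares 1000 exonic bases with BMI1 and had 0 to 14 counts per library.

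Counted over the members, 6 of the 7 tested were called in MC26 against CT, where 38.7% of all tested genes were. Of the 6, 5 were higher and 1, EPCAM, was lower, against 18.8% and 19.9% of all genes. In M1B26 against CT 4 were called, all higher, against 48.9% of all genes called, 25.2% higher and 23.7% lower. In M1B26 against MC26 4 were called, MME and EPCAM higher and CD44 and NT5E lower, against 39.5% of all genes called, 21.2% higher and 18.4% lower. Libraries of the 2 lines did not overlap for 4 of 7 members in MC26 against CT, 4 in M1B26 against CT and 6 in M1B26 against MC26. Over all genes these shares were 50.3%, 59.0% and 53.5%. Total counts without scaling factors would put 35.8% of the called genes higher in MC26 than in CT, in place of 48.5%, and 39.6% higher in M1B26, in place of 51.5%, while the called members kept their direction. All comparisons with CT used the same 3 CT libraries.

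**Figure D3:**
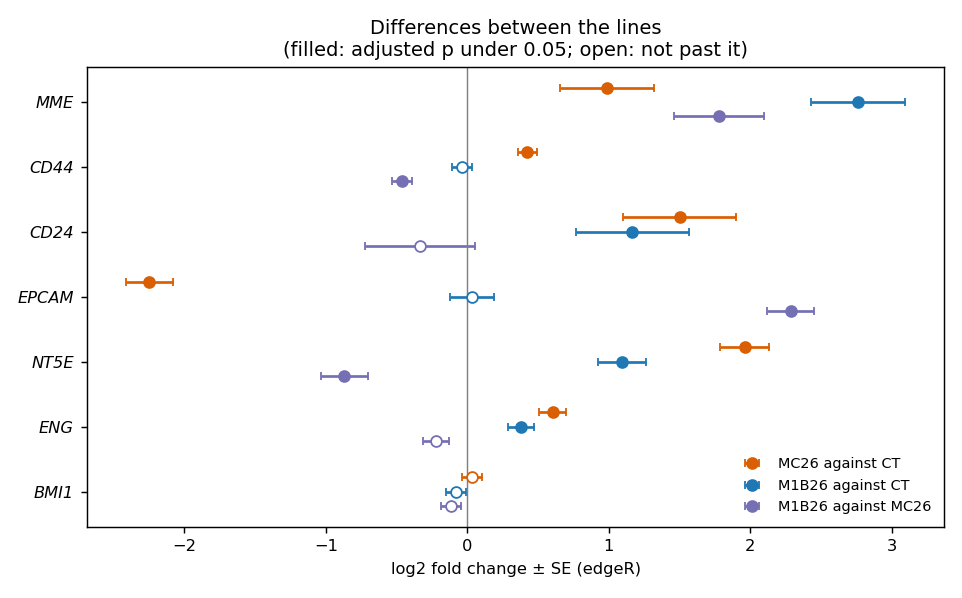
Log2 fold changes of the 7 tested members in the 3 comparisons, with bars of 1 SE and filled points for genes called by edgeR at an adjusted p under 0.05. In M1B26 against CT MME stands at 2.76 and BMI1, CD44 and EPCAM lie near 0, while in MC26 against CT EPCAM stands at -2.25 and NT5E at 1.96.

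MME was then set against each other member within a library, a comparison that scaling factors do not touch. For this the log2 CPM of the other gene was subtracted from that of MME, and group means were compared by 2-sided exact permutation tests over 24 pairs and comparisons. From CT to M1B26 MME had the largest rise of the members that passed the filter, so it gained on all 6 others. These 6 pairs share the same MME values and do not count as separate results. The gain was 2.81 over BMI1, 2.77 over CD44, 2.71 over EPCAM, 2.34 over ENG, 1.64 over NT5E and 1.59 over CD24, without overlap between the lines in any pair (exact permutation p 0.1 each, the smallest possible, and 0.16 after adjustment). From CT to MC26 MME gained 3.06 on EPCAM (exact permutation p 0.1, adjusted 0.16). Against the other members the MC26 libraries overlapped with CT, with differences from -1.14 (NT5E) to 0.75 (BMI1) and exact permutation p from 0.4 to 0.9. Between MC26 and M1B26 MME gained 2.78 on NT5E, 2.41 on CD44, 2.17 on ENG and 2.06 on BMI1 without overlap (exact permutation p 0.1 each). It differed by 2.06 from CD24 (exact permutation p 0.2) and by -0.35 from EPCAM (exact permutation p 0.4), both with overlap. No pair passed after adjustment, which 3 libraries against 3 could not reach here. Pairs with PROM1 and THY1 rest on the prior count and are left out.

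The MC26 libraries differed among themselves in 4 of these genes far more than most genes did. Between the highest and the lowest MC26 library CD24 differed 4.44-fold, MME 3.50-fold, NT5E 1.82-fold and EPCAM 1.63-fold, while CD44, ENG and BMI1 differed by less than the median gene. The median over 10403 genes that averaged at least 5 CPM in MC26 was 1.12-fold. Of those genes 12 were at least as spread as CD24, 18 as MME, 178 as NT5E and 325 as EPCAM. Replicate 3 held the most MME and EPCAM and the least CD24 and NT5E, and replicate 1 the reverse. In M1B26 the same measure was 1.58-fold for CD24, 1.35-fold for EPCAM, 1.18-fold for MME and 1.01-fold for NT5E, with a median of 1.11-fold over 10484 genes. There 132 genes were at least as spread as CD24, 506 as EPCAM, 2611 as MME and 10380 as NT5E, so CD24 and EPCAM were among the more spread genes in both MC26 and M1B26. In CT it was 1.36-fold for MME, 1.29-fold for CD24, 1.19-fold for NT5E and 1.13-fold for EPCAM, with a median of 1.16-fold over 10453 genes. Of the CT genes 953 were at least as spread as MME, 1668 as CD24, 4127 as NT5E and 6064 as EPCAM. Whether these differences lie between cells of a mixed culture or between whole cultures was not tested.

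**Figure D4:**
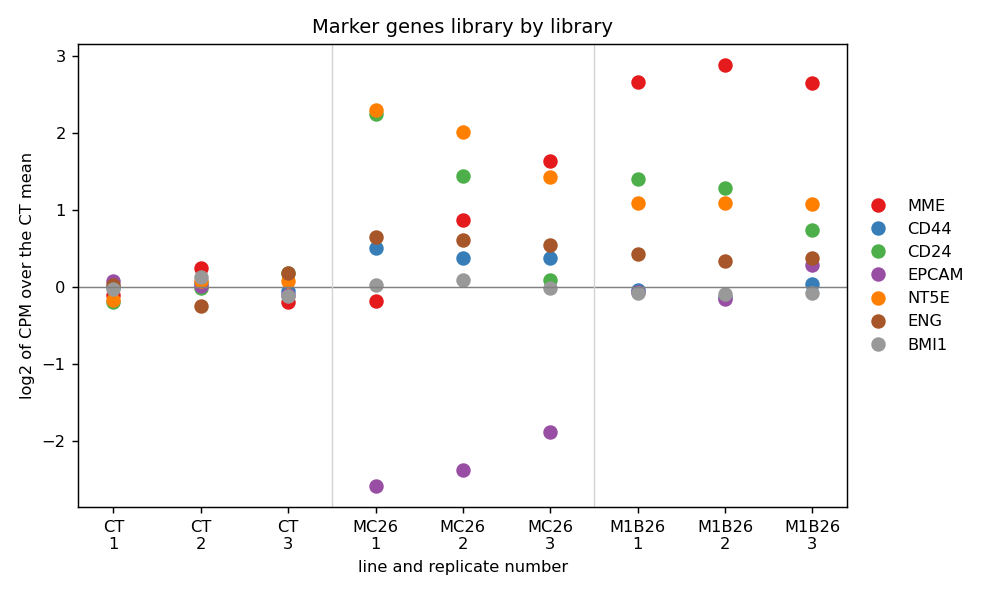
Log2 of CPM over the CT mean for the 7 tested members in each of the 9 libraries, with vertical lines between the lines. In MC26 replicate 1 CD24 and NT5E are far above the CT mean with MME near it and EPCAM lowest, whereas MME leads in MC26 replicate 3 and in all M1B26 libraries.

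Levels of different members were compared as CPM per kb of exonic sequence. In CT the order of mean levels per kb was CD44 at 34.5, EPCAM at 29.0, ENG at 22.2, NT5E at 18.4, BMI1 at 15.8, CD24 at 5.33 and MME at 0.710. Neighbours overlapped over libraries for ENG and NT5E and for NT5E and BMI1. In MC26 it was NT5E at 71.7, CD44 at 46.3, ENG at 33.8, BMI1 at 16.1, CD24 at 15.1, EPCAM at 6.09 and MME at 1.37. Here BMI1 overlapped with CD24 and CD24 with EPCAM. M1B26 had NT5E at 39.3, CD44 at 33.6, EPCAM at 29.7, ENG at 29.0, BMI1 at 14.9, CD24 at 12.0 and MME at 4.72, and CD44, EPCAM and ENG were not separated in order, since EPCAM overlapped with both. In each line MME thus stayed below the other 6 members per kb.

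Genes whose log2 CPM followed that of MME over the 9 libraries were looked up among 10636 genes that averaged at least 5 CPM. The 5 likest were HROB (Pearson r 0.986), CXCL1 (0.982), ALDOC (0.981), PPP1R3B (0.980) and CXCL8 (0.979). CXCL1 and CXCL8 are neutrophil-attracting chemokines, ALDOC a glycolytic aldolase, PPP1R3B a glycogen-targeting phosphatase subunit and HROB a recombination factor. HROB and ALDOC lie on chromosome 17, whose tested genes had a median of 0.48 on the log2 scale in M1B26 against CT. From CT to M1B26 the mean of HROB went from 11.6 to 20.1 CPM and that of ALDOC from 22.4 to 50.4. The part of the chromosome in these values was not tested. CXCL1 held 30.1 CPM on average in CT, 38.6, 66.2 and 81.9 CPM in MC26 replicates 1, 2 and 3 and 221 CPM on average in M1B26. The other members were less like MME, with r of 0.30 for ENG, 0.28 for EPCAM, 0.24 for NT5E, 0.23 for CD24, -0.33 for CD44 and -0.44 for BMI1. The 9 points fall into 3 lines, so these r values are descriptions and mostly reflect the means of the lines.

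Genes around the members were read from lists of related proteins, given as counts called beside the shares of all genes above. Among 6 tested surface peptidases 4 were called in MC26 against CT (3 higher, 1 lower) and 6 in M1B26 (3 higher, 3 lower), with median log2 fold changes of 0.82 and 0.33. FAP, a serine protease related to DPP4, had 7.43 ± 0.701 CPM in CT, and the MC26 mean was 29.0 ± 7.06 and the M1B26 mean 14.4 ± 1.14 (SD, n = 3), at 1.97 and 0.97 on the log2 scale. ANPEP (CD13), an aminopeptidase at 1588 ± 233 CPM in CT, changed by -0.55 in M1B26 (edgeR adjusted p 0.00438). ECE1, an endothelin-converting enzyme of the same peptidase family as MME, changed by -0.30 and -0.32 (adjusted p 0.00877 and 0.00468), and LNPEP by -0.37 in M1B26 (adjusted p 0.00760). The paralog MMEL1 had at most 8 counts in any library.

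Of 9 tested further surface markers of basal and stem-like mammary cells 9 were called in MC26 (5 higher, 4 lower) and 6 in M1B26 (4 higher, 2 lower), with medians of 0.41 and 0.18. The α6 integrin ITGA6, the classical sorting partner of EPCAM, was higher by 1.39 in MC26 and 0.93 in M1B26. PROCR, the protein C receptor, rose by 1.23 and 1.50, from 45.5 ± 3.08 CPM in CT to 107 ± 7.36 and 129 ± 5.80 (SD, n = 3). The integrins ITGB4 (0.87 and 1.21) and ITGB1 (0.46 and 0.47) rose in both lines. The genes called lower were chosen here after their values were seen. The chemokine receptor CXCR4 had 1.81 ± 0.136 CPM in CT (SD, n = 3) and at most 1 count in any MC26 or M1B26 library. LGR4, a receptor for R-spondins, changed by -0.31 and -0.29 (edgeR adjusted p 0.0283 and 0.0311). The neurotrophin receptor NGFR, at 0.900 ± 0.327 CPM in CT, and the efflux pump ABCG2, at 1.28 ± 0.291, were called lower in MC26 alone among the comparisons with CT, at -3.79 and -0.96, and differed between M1B26 and MC26 by 2.88 and 0.82 (edgeR adjusted p 0.00206 and 0.0261). Of 7 tested luminal surface markers 5 were called in each of the 2 comparisons with CT, all lower, with medians of -1.11 and -1.25, and 3 were called in M1B26 against MC26 (1 higher, 2 lower). The tight junction gene CLDN7 changed by -1.81 in MC26 (edgeR adjusted p 0.000140) and had -0.25 in M1B26 (adjusted p 0.355), the mucin MUC1 had 0.02 (adjusted p 0.967) and changed by -1.68 (adjusted p 0.000433), and the receptor ERBB3 changed by -1.63 and -1.25.

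For EPCAM, 12 genes of its cleavage, signalling and membrane complex were tested, CLDN7 among them, which is also on the luminal list. In MC26 against CT 7 were called, 1 higher and 6 lower, with a median of -0.34. In M1B26 against CT 4 were called (2 higher, 2 lower) with a median of -0.13, and in M1B26 against MC26 7 (5 higher, 2 lower). The tetraspanin CD9 held 80.3 ± 6.93 CPM in CT, against 37.3 ± 5.56 for MC26 and 67.2 ± 7.35 for M1B26 (SD, n = 3), with log2 fold changes of -1.11 (edgeR adjusted p 3.54e-05) and -0.26 (adjusted p 0.0799) against CT. CLDN7 and the protease ST14 differed between M1B26 and MC26 by 1.56 (edgeR adjusted p 0.000443) and 0.67 (adjusted p 0.00656), as EPCAM did by 2.28.

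Among 15 tested hyaluronan enzymes, receptors and CD44 partners 6 were called in MC26 (4 higher, 2 lower) and 10 in M1B26 (6 higher, 4 lower), with medians of 0.14 and 0.05. The hyaluronan synthase HAS3 was higher by 1.04 and 2.48 in MC26 and M1B26, going from 3.45 ± 0.413 to 7.23 ± 0.393 and 19.5 ± 6.19 CPM (SD, n = 3). CEMIP2, a hyaluronan-binding membrane protein, rose by 0.94 and 0.80. ESRP1, a splicing factor that sets which CD44 exons are kept, changed by -0.55 and -0.77 (edgeR adjusted p 0.00310 and 0.000236), and the receptor HMMR by -0.42 in M1B26 (adjusted p 0.0167). Isoforms of CD44 were not analysed here.

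For NT5E, 9 genes of extracellular adenosine were tested, of which 7 were called in MC26 (2 higher, 5 lower) and 6 in M1B26 (5 higher, 1 lower), with medians of -0.27 and 0.52. Between M1B26 and MC26 7 were called, all higher in M1B26. ENTPD2, an enzyme that breaks down extracellular ATP upstream of NT5E, held 52.3 ± 8.14 CPM in CT, against 1.89 ± 0.752 for MC26 and 6.47 ± 2.46 for M1B26 (SD, n = 3), at -4.79 and -3.01 on the log2 scale. The nucleoside carriers SLC29A1 (0.72 and 0.52) and SLC29A2 (-1.29 and -0.32, adjusted p 0.000645 and 0.204) moved in opposite directions in MC26. ADA, which deaminates adenosine, rose by 0.82 in M1B26 (edgeR adjusted p 0.000121) and had 0.17 in MC26 (adjusted p 0.240).

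Among 8 tested receptors and ligands of the endoglin complex 4 were called in MC26 (2 higher, 2 lower) and 3 in M1B26 (1 higher, 2 lower), with medians of -0.02 and -0.01. The co-receptor TGFBR3 changed by -1.02 and -0.86, opposite in sign to ENG. TGFBR2 rose by 0.47 in M1B26 and BMPR2 changed by -0.66 there, while ACVR2B changed by -0.67 in MC26. Of 7 tested surface markers of stromal cells other than the mesenchymal trio none was called higher than CT, with 3 lower in MC26 and 5 lower in M1B26 and medians of -0.54 and -0.92. N-cadherin CDH2 changed by -1.03 and -1.70, LEPR by -1.41 and -1.17, and ALCAM by -0.28 in M1B26 (adjusted p 0.00673).

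Beside BMI1, 19 other subunits of polycomb repressive complex 1 were tested. Of these 5 were called in MC26 (3 higher, 2 lower) and 14 in M1B26 (9 higher, 5 lower), with medians of -0.02 and 0.25. Without M1B26 replicate 2 the count in M1B26 was 9. The catalytic subunit RNF2 was higher by 0.36 in MC26 and 0.63 in M1B26, and PCGF6, a paralog of BMI1, by 0.52 and 0.39. PCGF5 changed by -0.50 and -0.28. PCGF2, the closest paralog of BMI1, rose by 0.61 in M1B26 (edgeR adjusted p 0.000249) and had -0.05 in MC26 (adjusted p 0.703). PCGF2 lies on chromosome 17, as do CLDN7, ITGB4, KRT14, NGFR, PECAM1, COL1A1, HROB and ALDOC. The 843 tested genes placed there had a median of 0.48 on the log2 scale in M1B26 against CT, and all other genes -0.02. The part of that shift in the values of PCGF2 and the genes named with it was not tested.

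CD24 and NT5E are both held in the membrane by a GPI anchor, as is THY1. Of 16 other tested GPI-anchored proteins 12 were called in MC26 (6 higher, 6 lower) and 10 in M1B26 (5 higher, 5 lower), with medians of 0.06 and -0.19. The complement inhibitor CD59 rose by 1.13 and 1.19, the urokinase receptor PLAUR by 1.61 and 0.88 and the NKG2D ligand ULBP2 by 1.47 and 0.87. PSCA changed by -1.97 and -3.12.

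The markers of cell identity moved too. Of 8 tested keratin and adhesion markers of mammary epithelium 6 were called in each line against CT (3 higher, 3 lower), with medians of 0.07 and -0.12 and a summed level of 8757 to 10966 CPM in CT, 13385 to 16911 in MC26 and 9447 to 9985 in M1B26. The basal keratin KRT14 rose by 4.34 and 3.33, KRT6A by 1.67 and 0.62 and the basal transcription factor TP63 by 1.29 and 1.31, while the epithelial cadherin CDH1 changed by -0.91 and -0.79. The 8 leukocyte markers summed to 7.12 to 11.1 CPM in CT, 9.77 to 18.0 in MC26 and 34.0 to 48.4 in M1B26, nearly all of it CD14, the only one tested. CD14 rose by 2.06 in M1B26 and had 0.51 in MC26 (edgeR adjusted p 0.101). Of 3 tested endothelial markers 1 was higher and 2 lower in MC26 and 1 was higher and 1 lower in M1B26, with medians of -1.51 and 0.05. The 7 endothelial markers summed to 8.16 to 8.26 CPM in CT, 2.19 to 3.76 in MC26 and 3.70 to 6.61 in M1B26. Of 4 tested fibroblast markers 0 were called in MC26 and 2 in M1B26, both higher, with medians of -0.01 and 0.18. These were LUM by 5.59 (edgeR adjusted p 7.88e-06), from a mean of 0.108 CPM in CT, and COL1A1, on chromosome 17, by 0.98. Without MC26 replicate 3 the fibroblast counts were 3 and 4, and without M1B26 replicate 3 the endothelial count in M1B26 was 1, while without MC26 replicate 1 the leukocyte count in MC26 was 1. The part of these markers in the members' values was not tested.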

How the data were processed

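Poly-A RNA of 9 MCF10A, MC26 and M1B26 cultures was sequenced from both fragment ends. The table deposited by the authors held raw counts, whole numbers for each gene symbol without normalization. The authors aligned reads with STAR 2.7.3a to GRCh38 with GENCODE v33. Salmon 1.1.0 on protein-coding genes is also named, although non-coding genes are in the table. The program that counted reads, whether it used strand and how it treated multi-mapped reads are not given in the sources used here. Reads of a gene and an overlapping partner, antisense ones included, could therefore be mixed. The labels and the study's methods give different concentrations of BMP2 and IL6, so none is stated.

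Groups and replicate numbers came from the sample titles. Counts were tested in R 4.3.3 with edgeR 4.0.16 (filterByExpr with a minimum count of 10, TMM factors of 0.968 to 1.07, glmQLFit and glmQLFTest, 1 fit of the 9 libraries, 2-sided, Benjamini-Hochberg adjustment over 15717 genes, threshold 0.05). The biological coefficient of variation was 10.4%. The SE is the absolute log2 fold change over the square root of F. The fit was tested on simulated data. Log2 CPM for ratios used a prior count of 2, and exact permutation tests were run in Python 3.11.15. Positions and exonic lengths are from GENCODE v44, a later release than that of the authors. Floors cover counting error only, and p-values measure the spread between cultures.

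The members and lists were chosen with earlier results of these data known. All 9 members were named, and from each of 14 lists up to 4 genes with the largest absolute change against CT among called genes averaging at least 5 CPM, plus the 5 genes most like MME. Some genes that these rules name are not reported here. DCN, LUM, KRT5, PECAM1, CXCR4, LGR4, NGFR, ABCG2, the defining markers at or near 0 counts and MMEL1 were named after their values were seen. The alternatives were RLE factors, DESeq2 1.42.0, unscaled total counts, scaling without chromosome 17, no filter, a minimum mean of 50 counts, rows that share reads added together, a replicate block, a fit limited to the 6 libraries compared, prior counts of 0.25 and 5, and leaving out each library.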

Additional observations from a re-analysis of the deposited data

Results flagged for a closer look

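The 2 transformed lines differed from each other by a direct test in 4 members. In M1B26 against MC26 the log2 fold change was 1.78 for MME and 2.28 for EPCAM, both higher in M1B26, and -0.46 for CD44 and -0.87 for NT5E, both lower (edgeR adjusted p 0.00145, 5.22e-06, 0.000496 and 0.00228, n = 3 per line, no overlap between libraries). With 3 libraries per line, no single library could be tested as an outlier.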

How the results depend on the processing

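Of 18 alternatives, the calls of MME in M1B26 against CT and against MC26, and those of CD44, EPCAM, NT5E and ENG against CT where they were called, held in all 18. The count of called members stayed within 5 to 6, 3 to 4 and 4 to 5 for MC26 against CT, for M1B26 against CT and for M1B26 against MC26, also when single libraries were left out. The rise of MME in MC26 lost its call with DESeq2 (0.96, adjusted p 0.0574), with the replicate block (0.89, adjusted p 0.0516) and with only the 6 libraries compared (0.97, adjusted p 0.0765). When single libraries were left out it ran from 0.47 to 1.34. CD24 in M1B26 against CT also lost its call with DESeq2 (adjusted p 0.0541), and ENG in M1B26 against MC26 gained one with total counts (adjusted p 0.0431) and with only the 6 libraries compared (adjusted p 0.0112). Signs turned only for values that were not called or not tested. With total counts BMI1 was at -0.046 in MC26 against CT and EPCAM at -0.058 in M1B26 against CT. With single libraries left out, BMI1 in MC26 against CT ran from -0.016 (without CT replicate 3) to 0.10, EPCAM in M1B26 against CT from -0.10 (without M1B26 replicate 3) to 0.13 with -0.015 without CT replicate 3, CD44 in M1B26 against CT from -0.077 to 0.010 (without M1B26 replicate 2), and CD24 in M1B26 against MC26 from -0.73 to 0.26 (without MC26 replicate 1). In MC26 against CT the log2 difference of MME and CD44 ran from -0.089 to 0.88, that of MME and CD24 from -1.49 to 0.49, and that of MME and ENG from -0.29 to 0.67, with -0.015 without CT replicate 3. The CD44 to CD24 ratio in M1B26 against MC26 ran from -0.79 to 0.21. The cause was not tested. Of the list counts, those of stromal surface genes in MC26 against CT moved from 3 to 5 with total counts. Fibroblast genes in M1B26 against CT moved from 2 to 4 with no filter and with only the 6 libraries compared. Leukocyte genes in M1B26 against CT moved from 1 to 2 with no filter and with DESeq2, and in MC26 against CT from 0 to 1 with no filter. Whether equal replicate numbers pair the libraries is not given in the sources used here. Over genes, deviations of same-numbered libraries correlated at -0.114 to 0.136, and at 0.0810, 0.0418 and 0.136 between M1B26 and MC26. The closest library of another line had the same number in 9 of 18 cases. These values do not settle the pairing. With the replicate block 5879, 7513 and 6009 genes were called, against 6081, 7688 and 6215 without it, and it changed no other call of a member. The lowest total count, 21425118, limits detection to 0.131 CPM there.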
